A study of Mus musculus with 2 samples.

Results

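The collagen gene family was examined in single cells of the mouse mesentery, the sheet of tissue that carries vessels, nerves and fat to the gut. Its members were taken by symbol alone, as every gene whose symbol reads Col, a number, a and a number; 44 of the 27998 genes in the count matrix met that rule. The members were sorted by the structure of their protein into 11 fibrillar collagens, 8 basement membrane collagens, 9 fibril-associated collagens and 16 others. Of the 44, 29 had at least 10 transcripts counted in the cells kept, 6 had between 1 and 9, and 9 had 0.

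Collagens are built from 3 alpha chains wound into a triple helix, and each gene of the family encodes 1 chain. Fibrillar chains (types I, III and V among them) are trimmed outside the cell and line up into the rope-like fibrils that give tissue its tensile strength, and fibril-associated collagens sit on the surface of those fibrils. Type IV chains form the sheet-like network of basement membranes under endothelium and epithelium and around smooth muscle, type VI forms beaded filaments close to cells, and fibroblasts are the best-known source of the fibrillar chains in connective tissue.

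The study isolated all cells of whole mesenteries with Liberase DH, an enzyme blend that digests collagen protein, and made droplet libraries that count the 3′ ends of transcripts (10x Genomics Chromium, V2). The only group was untreated male wild-type mice of strain C57BL/6N, with 1 library from each of 2 mice. No sorting of cell types is described, so the classes below were rebuilt here from the counts and every class comparison is made within the same 2 animals. Each unique molecular identifier (UMI) stands for 1 captured transcript whatever its length, so levels are given as UMIs for every 1000000 UMIs of the class (CPM), with no correction for length. Capture at the 3′ end can still differ between genes, so an order of levels between genes is an order of transcripts captured.

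The libraries held 1517 and 1687 cell barcodes with a median of 3065 and 2663 UMIs, and shared 0 barcodes. After filtering, 3100 cells were left in 11 classes named from fixed marker genes, none of them a collagen, and in 1 unnamed cluster of 31 cells. The fibroblast-like class held 460 and 529 cells in library 1 and library 2, in 4 clusters called here Cxcl14 Inmt, Has1 Tnfaip6, Mgp Mfap4 and Pi16 Igfbp5. Each was recognised by 1 gene among its 10 leading genes (Cxcl14, Has1, Mfap4 or Pi16). The other gene of each name comes from the marker list of that cluster. Other collagen-bearing classes were mesothelial-like (68 and 177 cells), blood endothelial-like (180 and 162) and pericyte- or smooth muscle-like (74 and 84). The last is called pericyte-like below. The monocyte-like class (81 and 135 cells) held collagen UMIs too, which are described further below. Markers of other classes were present in some of these classes. The 10 blood endothelial markers summed to 7390 and 7109 CPM in the pericyte-like class, none of the 10 at 0, against 10731 and 8762 CPM in the endothelial-like class. The 8 adipocyte markers summed to 422 and 905 CPM in the endothelial-like class, and the 10 fibroblast markers to 1010 and 2567 CPM there, against 37678 and 33030 CPM in the fibroblast-like class.

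Several members lie beside each other in the genome (GRCm38/mm10, GENCODE M21). Col4a4 (chr1:82448423-82586849) and Col4a3 (chr1:82586921-82722059) stand head to head with 71 bases between their outermost annotated starts, Col4a6 (chrX:141165403-141474076) and Col4a5 (chrX:141475385-141689234) stand head to head with 1308 bases between them, and Col4a1 (chr8:11198423-11312826) and Col4a2 (chr8:11312805-11449287) overlap by 22 bases at their 5′ ends. Col3a1 (chr1:45311538-45349706) and Col5a2 (chr1:45374321-45503282) lie tail to tail, 24614 bases apart. Both genes of the Col4a6 and Col4a5 pair had their highest level in the mesothelial-like class, and both genes of the Col4a1 and Col4a2 pair in the pericyte-like class. Col4a4 was highest in the mesothelial-like class and Col4a3 in the fibroblast-like class, both at low levels given below.

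The sequences shown here are the shared stretch between Col4a4 and Col4a3 and the 250 bases before the start of 5 members: the most abundant chain, a chain that joins it in fibrils, a chain highest in the mesothelial-like class, and 2 chains that differed widely among the fibroblast-like clusters. They are from GRCm38.p6 and the start sites of RefSeq, each 5′ to 3′ on the strand of the gene (the shared stretch on the plus strand). Capitals mark 3 kinds of motif, each searched on both strands without regard to overlap. The CCAAT box was searched by the letters of its name. The GC box was searched as GGGCGG. The TATA box was searched as TATAAA.
Col4a4 to Col4a3, chr1:82586850-82586920 (between the genes): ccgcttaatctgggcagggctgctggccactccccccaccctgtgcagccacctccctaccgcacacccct
Col3a1, chr1:45311288-45311537 (plus strand): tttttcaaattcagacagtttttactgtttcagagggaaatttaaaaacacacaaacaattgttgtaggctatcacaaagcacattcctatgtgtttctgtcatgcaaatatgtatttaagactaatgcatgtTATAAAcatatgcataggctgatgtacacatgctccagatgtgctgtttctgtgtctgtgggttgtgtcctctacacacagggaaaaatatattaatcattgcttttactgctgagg
Col5a1, chr2:27886175-27886424 (plus strand): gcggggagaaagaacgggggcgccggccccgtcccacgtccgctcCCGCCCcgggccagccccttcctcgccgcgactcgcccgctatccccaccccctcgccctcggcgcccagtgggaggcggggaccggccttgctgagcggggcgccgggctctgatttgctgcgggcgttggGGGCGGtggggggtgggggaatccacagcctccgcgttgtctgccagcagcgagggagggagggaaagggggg
Col4a6, chrX:141474077-141474326 (minus strand): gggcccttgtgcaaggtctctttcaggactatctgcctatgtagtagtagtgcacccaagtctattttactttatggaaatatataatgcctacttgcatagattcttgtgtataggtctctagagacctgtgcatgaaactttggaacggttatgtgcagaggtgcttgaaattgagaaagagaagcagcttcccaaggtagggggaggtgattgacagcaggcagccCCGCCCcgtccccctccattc
Col15a1, chr4:47207762-47208011 (plus strand): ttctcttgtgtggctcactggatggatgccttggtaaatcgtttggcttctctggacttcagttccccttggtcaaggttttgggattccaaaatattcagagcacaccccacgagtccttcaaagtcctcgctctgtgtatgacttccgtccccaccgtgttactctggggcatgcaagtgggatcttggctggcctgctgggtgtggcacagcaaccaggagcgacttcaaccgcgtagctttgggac
Col8a1, chr16:57754738-57754987 (minus strand): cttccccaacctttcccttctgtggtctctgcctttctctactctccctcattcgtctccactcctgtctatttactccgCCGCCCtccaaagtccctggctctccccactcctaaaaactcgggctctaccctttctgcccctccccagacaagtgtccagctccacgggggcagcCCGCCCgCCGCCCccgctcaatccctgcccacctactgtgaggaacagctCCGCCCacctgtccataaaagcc
The window of a member was shown only where none of its bases fell in an annotated GENCODE exon. The window of Col3a1 held 1 TATAAA, that of Col5a1 held 2 GC boxes, that of Col4a6 held 1 and that of Col8a1 held 4, and neither the Col15a1 window nor the stretch between Col4a4 and Col4a3 held any of the 3 motifs. The RefSeq table covered 35 of the 44 members with 38 start sites. A GC box stood in the window of 22 of those 38 (57.9%) against 32.7% of all 32851 start sites, a CCAAT box in 34.2% against 33.8%, and TATAAA in 13.2% against 12.4%. These are matches of letters and were not tested.

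Transcripts of the 44 genes made up 57703 of the UMIs in the cells kept, 0.558% of the total. Col3a1 (15051 UMIs), Col1a2 (10797) and Col1a1 (6960), the chains of the 2 major fibrillar collagens, together supplied 56.9% of them. The fibroblast-like class held 68.8% of the collagen UMIs and 32.6% of all UMIs. Ordered by UMIs within that class, Col3a1 had rank 41 and 38 among all genes in the 2 libraries, Col1a2 rank 67 and 63, and Col1a1 rank 143 and 108. Among the 29 members with at least 10 UMIs, 17 had their highest mean level in the fibroblast-like class, 7 in the mesothelial-like, 3 in the pericyte-like, 1 in the endothelial-like and 1 in the monocyte-like class. Some of these places rest on few UMIs or on libraries that overlap between classes, as for Col27a1 and Col4a4 below. The same split over all genes is not given here, so the counts describe the members only.

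Collagens took 1.14% and 1.21% of the UMIs of the fibroblast-like class in library 1 and library 2 (1.18% ± 0.05, SD, n = 2). They took 0.610% and 0.624% in the mesothelial-like class (0.617% ± 0.0099) and 0.336% and 0.381% in the pericyte-like class (0.359% ± 0.0316). The endothelial-like class had 0.172% and 0.210%. No library of one of these 4 classes overlapped a library of another, and the exact (Clopper-Pearson) 95% intervals, which cover counting error only, ran from 1.13% to 1.16% for the fibroblast-like class of library 1 and from 0.588% to 0.633% for its mesothelial-like class. The macrophage-, dendritic-, T-, B-, NK- or ILC1- and ILC2-like classes were at or below 0.0280% in both libraries. That low level depended on the clustering for 2 of them: at a finer clustering the dendritic-like class, with another cluster of 17 and 36 cells in it, was at 0.311% and 0.465%, and under the stricter cell filter it was at 0.303% and 0.440%. The macrophage-like class of library 2 was at 0.0757% at a coarser clustering and 0.0827% under the stricter filter.

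**Figure D1:**
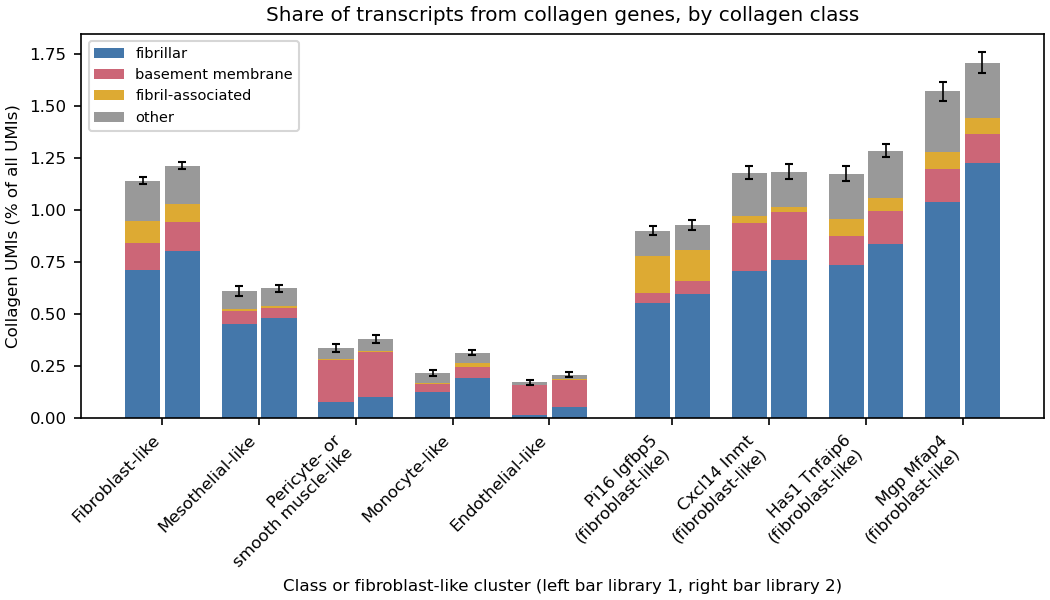
Stacked bars give the percent of all UMIs that came from collagen genes (y axis), split by collagen class, for 5 cell classes and the 4 fibroblast-like clusters, with library 1 on the left and library 2 on the right of each pair; error bars are exact 95% intervals of the total and cover counting error only. The fibroblast-like bars stand at 1.14% and 1.21%, the endothelial-like bars at 0.172% and 0.210%, and the mix shifts from mostly fibrillar in fibroblast- and mesothelial-like cells to mostly basement membrane in pericyte- and endothelial-like cells.

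The mix of collagens differed between the classes. Fibrillar chains were 62.2% and 66.2% of collagen UMIs in the fibroblast-like class and 74.4% and 77.2% in the mesothelial-like class. Basement membrane chains were 84.4% and 61.2% in the endothelial-like class and 59.8% and 57.8% in the pericyte-like class. In the fibroblast-like class they were 11.7% and 11.5%, the larger part from Col4a1 and Col4a2. Fibril-associated chains reached 9.22% and 6.999% in the fibroblast-like class and stayed at or below 2.81% in the mesothelial-, endothelial- and pericyte-like classes of both libraries. The endothelial-like mix was the least repeatable of the 4: its fibrillar share was 8.73% in library 1 and 25.8% in library 2, and the summed fibroblast markers in that class were 1010 and 2567 CPM in the same order. Whether those 2 values are linked was not tested.

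**Figure D2:**
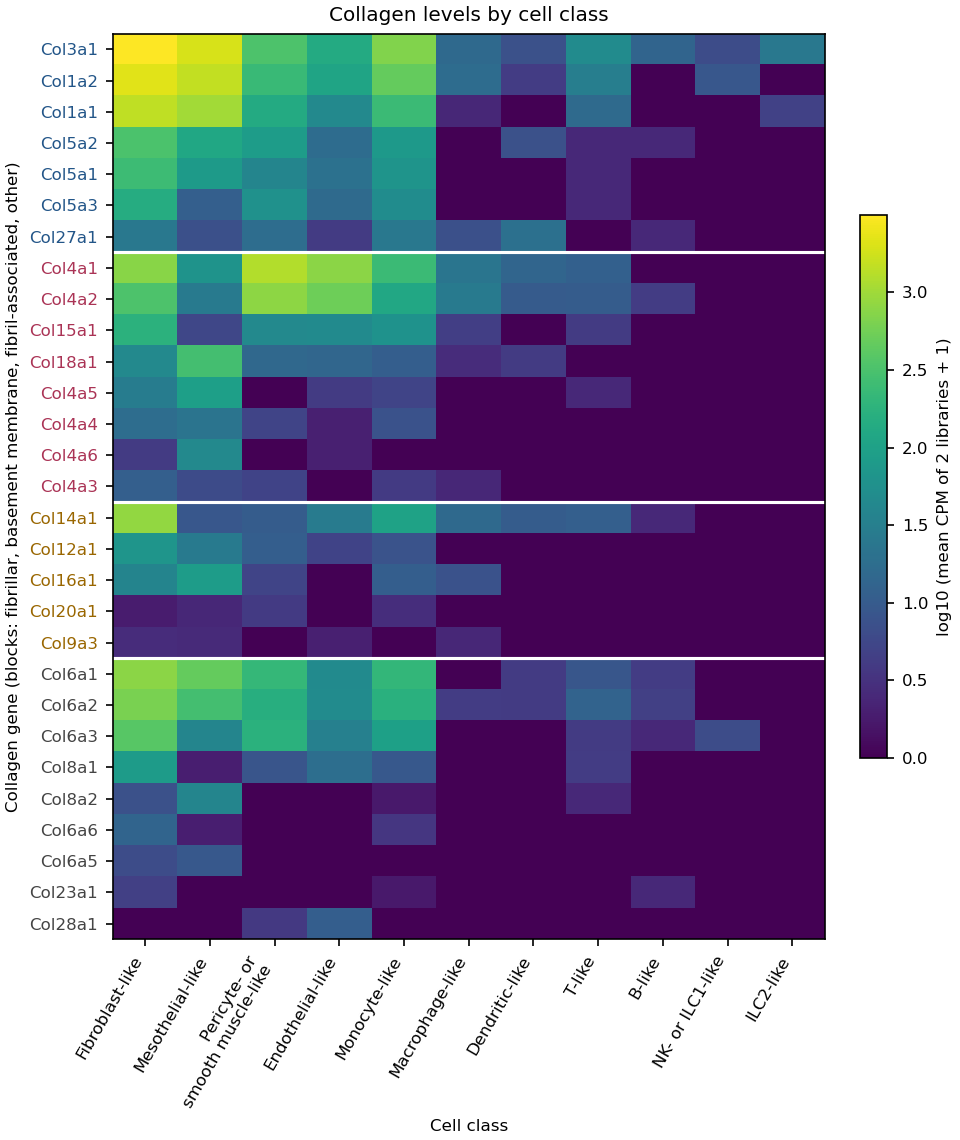
The heat map gives log10 of the mean CPM of 2 libraries plus 1 for the 29 collagens with at least 10 UMIs (rows, grouped by collagen class) in 11 cell classes (columns). The type I, III and V genes are brightest in the fibroblast-like column, Col4a1 and Col4a2 in the pericyte-like column, and Col18a1, Col4a5, Col4a6 and Col8a2 in the mesothelial-like column.

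Of the fibrillar collagens, Col3a1 (type III) was the most abundant in the fibroblast-like class, at 2939 and 3370 CPM. It stood at 1830 and 2039 CPM in the mesothelial-like class, 283 and 372 CPM in the pericyte-like class and 49.4 and 228 CPM in the endothelial-like class. These 4 classes kept this order in both libraries and did not overlap, while the monocyte-like class, described below, was at 613 and 745 CPM. Col1a2 and Col1a1, the chains of type I, followed the same order: Col1a2 was at 2181 and 2275 CPM in the fibroblast-like, 1488 and 1510 in the mesothelial-like and 221 and 245 in the pericyte-like class. Col1a1 was at 1261 and 1632, 986 and 1072, and 112 and 160 CPM in the same classes. The mesothelial-like class, a covering layer with epithelial keratins, thus carried type I and III transcripts at levels next below those of the fibroblast-like class. Its cells also held a median of 58 and 45 UMIs of the fibroblast markers, against 133 and 92 in fibroblast-like cells. Median depth was 6750.5 and 5771 UMIs in the mesothelial-like and 3644.5 and 2980 UMIs in the fibroblast-like class. Whether these markers and the type I and III levels share a source was not tested.

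The type V chains, which take part in starting fibrils and in setting their width, were less abundant than the major chains. Col5a2 stood at 328 and 321 CPM in the fibroblast-like class, Col5a1 at 236 and 259, and Col5a3 at 141 and 148. In the mesothelial-like class the levels were 132 and 107 CPM for Col5a2, 87.0 and 70.4 for Col5a1 and 8.93 and 11.9 for Col5a3. Col5a3 was ordered between classes in another way from its partners: in the pericyte-like class it was at 44.2 and 73.4 CPM, above its mesothelial-like level, while Col5a1 was at 29.5 and 46.2 CPM there, below its mesothelial-like level. Col27a1, a less studied fibrillar chain, was at 17.3 and 30.5 CPM in the fibroblast-like and 28.3 and 19.8 CPM in the monocyte-like class, which overlap. Col11a2 had 5 UMIs in all, and Col2a1, Col11a1 and Col24a1 had 0.

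Among the basement membrane collagens, Col4a1 and Col4a2, whose chains wind together into the common type IV network, were highest in the pericyte-like class. Col4a1 was at 1146 and 1315 CPM there, 835 and 716 in the endothelial-like, 748 and 761 in the fibroblast-like and 71.4 and 51.6 CPM in the mesothelial-like class. The endothelial- and fibroblast-like ranges overlapped for Col4a1, whereas the mesothelial-like class lay far below both. Col4a2 was at 807 and 815 CPM in the pericyte-like, 558 and 500 in the endothelial-like, 316 and 350 in the fibroblast-like and 26.8 and 25.8 CPM in the mesothelial-like class, with no overlap. Since these classes held markers of their neighbours, the endothelial-like class was also split further: at a finer clustering 33 and 37 cells rich in adipocyte markers (1547 and 3058 CPM) separated from it, with Col4a1 at 592 and 566 CPM. The remaining 146 and 125 endothelial-like cells had Col4a1 at 891 and 764 CPM.

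Col4a5 and Col4a6 had another order. Col4a5 was at 100 and 84.3 CPM in the mesothelial-like class and at 25.4 and 31.7 CPM in the fibroblast-like class, and had 0 UMIs in the pericyte-like class. Its head-to-head neighbour Col4a6 was at 37.9 and 47.6 CPM in the mesothelial-like class and 1.15 and 4.88 CPM in the fibroblast-like class, with 0 UMIs in the pericyte-like class. Both chains are known from the basement membranes of epithelia, and in both libraries their mesothelial-like levels lay above every other class. Col4a4 was at 24.5 and 17.8 CPM in the mesothelial-like and 11.0 and 22.6 CPM in the fibroblast-like class, and Col4a3 at 6.69 and 3.97 CPM and 12.7 and 8.54 CPM; the class ranges of Col4a4 overlapped.

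Col18a1 and Col15a1, 2 collagens of basement membrane zones that share a protein family and release fragments of the endostatin kind, split between the same 2 classes. Col18a1 was at 324 and 238 CPM in the mesothelial-like and 39.2 and 47.0 CPM in the fibroblast-like class, and at 17.7 and 10.9 CPM in the pericyte-like class. Col15a1 was at 178 and 173 CPM in the fibroblast-like, 51.4 and 40.7 in the endothelial-like, 38.3 and 48.9 in the pericyte-like and 2.23 and 6.94 CPM in the mesothelial-like class. Neither gene's mesothelial- and fibroblast-like ranges overlapped, and the order was opposite for the 2 genes.

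Col14a1, a fibril-associated collagen that binds the surface of type I fibrils, was concentrated in the fibroblast-like class. It was at 933 and 759 CPM there, 8.93 and 6.94 CPM in the mesothelial-like, 0 and 19.0 in the pericyte-like and 6.17 and 48.8 CPM in the endothelial-like class. Col12a1, of the same kind, was at 78.4 and 51.2 CPM in the fibroblast-like and 22.3 and 31.7 CPM in the mesothelial-like class. Col16a1 showed the reverse, with 93.7 and 77.3 CPM in the mesothelial-like and 37.5 and 37.2 CPM in the fibroblast-like class, and 0 UMIs in the endothelial-like class. Col20a1 and Col9a3 had 11 and 10 UMIs in all, and Col9a1, Col9a2 and Col19a1 had 0.

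In the remaining group the type VI chains were the most abundant. Col6a1 was at 758 and 773 CPM in the fibroblast-like, 491 and 445 in the mesothelial-like and 200 and 223 CPM in the pericyte-like class. Col6a2 was at 645 and 606, 272 and 291, and 174 and 141 CPM in the same classes. Col6a3, the largest chain of the classical type VI molecule, was at 396 and 386 CPM in the fibroblast-like class but at 40.2 and 35.7 CPM in the mesothelial-like class, below the 138 and 198 CPM of the pericyte-like class. The later-described chain Col6a6 was at 13.8 and 11.0 CPM in the fibroblast-like class, and Col6a4 had 0 UMIs. Col6a5 was at 6.69 and 9.91 CPM in the mesothelial-like class. In the fibroblast-like cluster Mgp Mfap4 it was at 13.9 and 41.8 CPM, on 4 and 11 UMIs.

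The 2 chains of type VIII, a short-chain collagen of vessel walls and of the cornea, were found in different classes. Col8a1 was at 106 and 57.3 CPM in the fibroblast-like and 0 and 1.98 CPM in the mesothelial-like class. Col8a2 was at 33.5 and 41.6 CPM in the mesothelial-like and 4.04 and 8.54 CPM in the fibroblast-like class, and had 0 UMIs in the pericyte- and endothelial-like classes. Col28a1 (12 UMIs) was seen in the endothelial-like class at 2.06 and 18.3 CPM and in the pericyte-like class at 2.95 and 2.72 CPM, and was at 0 in the fibroblast-like class. Col23a1 had 15 UMIs, with 4 and 2 of them in the Cxcl14 Inmt cluster and 1 and 1 in each other fibroblast-like cluster. Col17a1 had 8 UMIs, Col7a1 6, Col22a1 4, Col13a1 2 and Col25a1 1, while Col10a1 and Col26a1 had 0. For these the depth allows no statement on any class.

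Classes were compared with edgeR's quasi-likelihood test on UMIs summed per library and class, with Benjamini-Hochberg adjustment over all 7754 genes that passed the filter on low counts and calls at an adjusted p under 0.05. The filter kept 20 of the 44 members; the 24 others were too sparse to test, and since a member high in 1 class alone could pass, counts over the 20 describe the tested members only. The library was a block in the fit, so a difference between the 2 mice shared by all classes is removed. The p-values rest on how far class differences varied between the 2 mice, pooled over classes with 10 residual degrees of freedom. Against the average of the 10 other classes, each of the 20 tested members was called higher in the fibroblast-like class, where 31.8% of all genes tested were called higher and 18.3% lower. Under DESeq2's Wald test Col4a6 and Col8a2 were not called, and under the stricter cell filter Col8a2 was not. The median log2 difference of the 20 was 5.91 against 0.05 for all genes tested. That average gives full weight to immune classes in which single collagens had few or 0 UMIs. The size of the fitted differences thus depends on how zeros are handled.

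When all other cells were summed instead, 24 members could be tested: 21 were higher in the fibroblast-like class, 1 was lower and 2 were not called, where 22.5% and 25.6% of 10855 genes were called higher and lower. Their median log2 difference was 2.59 against -0.04 for all genes. Col14a1 had the largest difference (log2 5.17 ± 0.23, SE; 36.0-fold), followed by Col6a6 (4.14), Col8a1 (4.07) and Col6a3 (3.24). Col3a1, Col1a1 and Col1a2 were 6.30-, 6.09- and 5.94-fold higher, and Col4a1 and Col4a2 2.82- and 1.92-fold higher. Col4a6 was lower (log2 -1.47 ± 0.48, adjusted p = 0.0143), and Col8a2 and Col18a1 were not called (log2 -0.24 and -0.35). These 3 genes were called higher under the average of classes, so their direction against the rest depends on whether classes or cells carry equal weight; their mesothelial-like levels are given above.

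Against the mesothelial-like class, 15 of the 20 members were higher in the fibroblast-like class and 5 were lower, where 15.7% and 18.4% of all genes were called higher and lower. The median log2 difference was 1.27 against -0.06 for all genes. Col14a1 (log2 6.95 ± 0.40), Col8a1 (5.61 ± 0.55) and Col15a1 (5.06 ± 0.33) differed most, followed by Col5a3 (3.85 ± 0.28), Col4a1 (3.80 ± 0.26), Col4a2 (3.79 ± 0.27) and Col6a3 (3.53 ± 0.20). Col5a1, Col5a2, Col6a2, Col12a1 and Col6a1 were higher by log2 0.84 to 1.84. The 5 that were lower in fibroblast-like cells were Col4a6 (log2 -3.60 ± 0.57), Col18a1 (-2.54 ± 0.18), Col8a2 (-2.40 ± 0.51), Col4a5 (-1.52 ± 0.28) and Col16a1 (-1.03 ± 0.26). Col3a1, Col1a2 and Col1a1 were called higher by small margins (log2 0.83, 0.70 and 0.60, adjusted p = 0.00489, 0.0202 and 0.0348). The call on all 3 was lost without the library block, under DESeq2's Wald test and under a stricter cell filter. The Wald test also lost Col12a1 and, among the 5 that were lower, Col4a6, Col8a2 and Col16a1, which left Col18a1 and Col4a5; Col8a2 was not tested under the stricter filter.

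Against the endothelial-like class, 17 members were higher, 1 was lower and 2 were not called, where 20.1% and 22.9% of all genes were called higher and lower. The median log2 difference was 3.78, or 3.49 with the 2 genes at 0 UMIs in endothelial-like cells set to their lower bound, against -0.05 for all genes. All 6 fibrillar chains tested were higher, from log2 3.32 ± 0.30 for Col5a3 to 5.21 ± 0.32 for Col1a1, and Col14a1 was higher by 5.07 ± 0.35. The type IV pair stood apart: Col4a2 was lower in fibroblast-like cells (log2 -0.57 ± 0.19, adjusted p = 0.0133), and Col4a1 was not called (0.06 ± 0.21, adjusted p = 0.861). The call on Col4a2 was lost under DESeq2's Wald test and when collagens were kept among the genes used for clustering. The Wald test also lost Col12a1 and Col8a2, here and against pericyte-like cells. Col16a1, at 0 UMIs in the endothelial-like class, was at least 6.08-fold higher, counting 3 UMIs over the class as the floor. Col8a2, another of the 17, stood on 7 and 14 UMIs in fibroblast-like cells against 0, which bounds it at 1.02-fold or more.

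Against the pericyte-like class, 17 members were higher, 2 were lower and 1 (Col4a6) was not called, where 18.7% and 21.5% of all genes were called higher and lower. The median log2 difference was 2.87, or 2.15 with 3 genes at 0 UMIs in pericyte-like cells set to their bound, against -0.03 for all genes. The major fibrillar chains were higher by log2 3.47 to 3.63 (11.1- to 12.4-fold), Col5a1 by 2.89, Col5a2 by 2.12 and Col5a3 by 1.48 ± 0.24. Col6a1 and Col6a2 were higher by 2.05 and 2.18, Col6a3 by 1.41 ± 0.17, and Col14a1 by 6.61 ± 0.44. Col4a2 was lower (log2 -1.09 ± 0.19, adjusted p = 6.17e-06). Col4a1 had an adjusted p of 0.0499 (log2 -0.51 ± 0.21), and that call was lost in each of the 9 alternative settings tested. Col4a5, at 0 UMIs in the pericyte-like class, was at least 3.36-fold higher, while the few UMIs of Col8a2 give no bound above 1 and its call was lost in 3 settings. The pericyte-like class also carried endothelial markers at the levels given above, and their part in its type IV level was not tested.

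**Figure D3:**
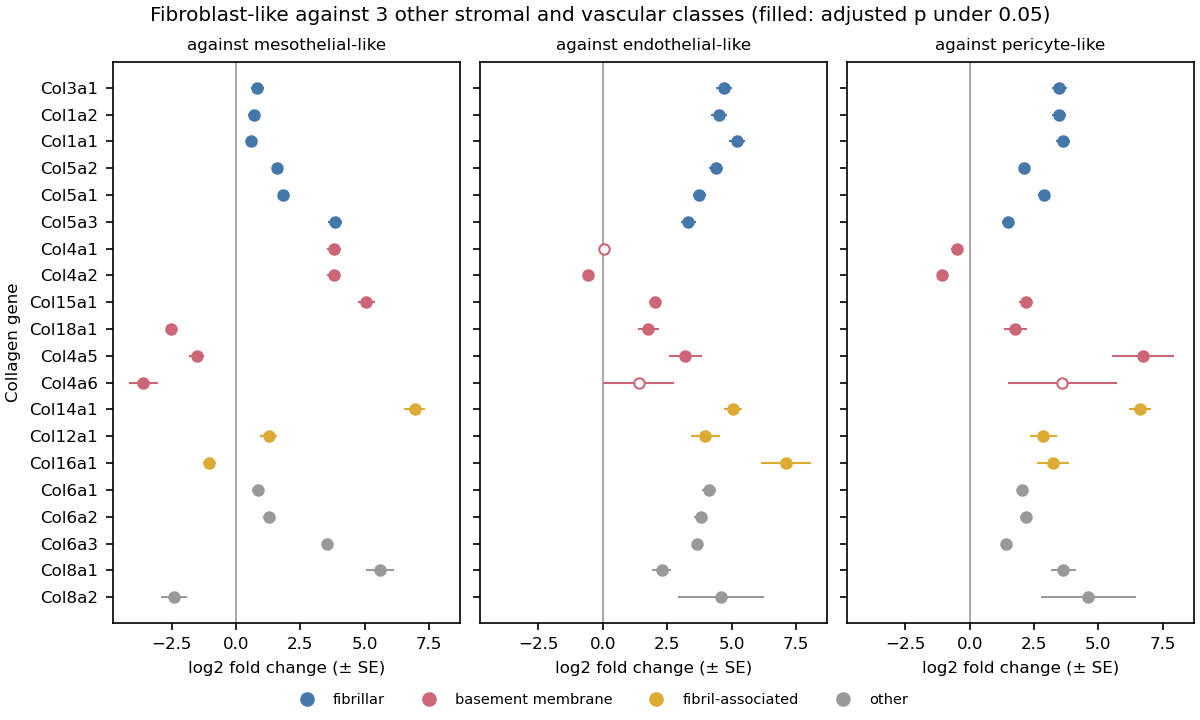
Points give the log2 fold change of 20 collagens (rows, coloured by collagen class) in fibroblast-like cells against mesothelial-, endothelial- and pericyte-like cells, with bars of 1 SE from edgeR's quasi-likelihood fit over 2 libraries; filled points passed an adjusted p of 0.05. Fibrillar chains lie to the right of 0 in all 3 panels, Col4a1 and Col4a2 lie near or left of 0 against endothelial- and pericyte-like cells, and 5 members lie left of 0 against mesothelial-like cells; Col16a1 and Col8a2 against endothelial-like cells and Col4a5, Col4a6 and Col8a2 against pericyte-like cells are fitted against 0 UMIs, so their position depends on the prior count.

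The family also varied within the fibroblast-like class. Collagens took 0.902% and 0.928% of UMIs in the Pi16 Igfbp5 cluster, 1.18% and 1.19% in Cxcl14 Inmt, 1.18% and 1.29% in Has1 Tnfaip6 and 1.57% and 1.71% in Mgp Mfap4. The Pi16 Igfbp5 libraries lay below all others and the Mgp Mfap4 libraries above, while the other 2 clusters overlapped. The mix differed too. Basement membrane chains were 19.6% and 19.5% of collagen UMIs in Cxcl14 Inmt and 5.52% and 6.47% in Pi16 Igfbp5, and fibril-associated chains were 2.87% and 1.93% in Cxcl14 Inmt and 19.6% and 16.4% in Pi16 Igfbp5. The summed fibroblast markers were 23719 and 20821 CPM in Pi16 Igfbp5 and between 35337 and 50266 CPM in the 6 other cluster sums; their relation to the collagen share was not tested.

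Each cluster was set against the average of the other 3 with the same edgeR quasi-likelihood test over 5440 genes, of which 20 were members. This fit had 3 residual degrees of freedom over 8 sums, so very small p-values lean on a spread shared over genes and not on many animals. The clusters were made without the collagens, but genes that vary with collagens took part, so a difference between clusters describes these clusters and is not independent of how cells were divided. In Pi16 Igfbp5, 14 members were lower, 3 were higher and 3 were not called, where 13.6% and 12% of all genes were called lower and higher; the median log2 difference was -1.06 against 0.00 for all genes. Col15a1 was at 17.3 and 11.2 CPM there and between 137 and 360 CPM in the other clusters (log2 -4.16 ± 0.24, 17.9-fold lower, adjusted p = 3.25e-23). All 6 basement membrane chains tested were lower, among them Col4a1 (330 and 385 CPM, log2 -1.42 ± 0.12) and Col4a2 (118 and 151 CPM, -1.74 ± 0.15). The type VI chains were lower by similar amounts, with log2 differences of -1.07 for Col6a1, -1.08 for Col6a3 and -1.12 for Col6a2. The fibrillar chains Col3a1 (-0.89), Col5a2 (-0.65), Col1a1 (-0.56) and Col1a2 (-0.45) were lower by less, and Col5a1 was not called (-0.13 ± 0.13). Under DESeq2's Wald test the calls on Col18a1, Col4a4 and Col4a5 were lost, that on Col4a4 also under the stricter cell filter.

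The 3 members that were higher in Pi16 Igfbp5 cells were Col14a1, Col12a1 and Col8a1. Col14a1 was at 1604 and 1407 CPM, against 278 and 176 in Cxcl14 Inmt, 707 and 548 in Has1 Tnfaip6 and 731 and 646 in Mgp Mfap4 (log2 1.63 ± 0.10, adjusted p = 8.05e-22). It lay above the other clusters in both libraries and came close to Col1a2, at 0.843 and 0.754 Col14a1 UMIs for each Col1a2 UMI. Col12a1 was at 127 and 95.3 CPM (log2 1.52 ± 0.23), and Col8a1 at 159 and 76.6 CPM (1.93 ± 0.26). Col8a1 was not highest here: it was at 191 and 106 CPM in Mgp Mfap4, 71.2 and 51.5 in Has1 Tnfaip6 and 2.32 and 2.66 in Cxcl14 Inmt, and the Pi16 Igfbp5 and Mgp Mfap4 ranges overlapped. The other fibril-associated chain tested, Col16a1, was not called (-0.50 ± 0.30).

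The Cxcl14 Inmt cluster had 6 members higher, 4 lower and 10 not called, where 9.34% and 7.06% of all genes were called higher and lower; the median log2 difference was 0.05 against 0.01. Here the basement membrane chains led: Col4a1 was at 1346 and 1217 CPM (log2 1.16 ± 0.10), Col4a2 at 489 and 615 (1.10 ± 0.12) and Col15a1 at 360 and 343 (2.05 ± 0.16). Both libraries of this cluster had more Col4a1 than the endothelial-like class as a whole (835 and 716 CPM). Col4a4, at 32.5 and 53.2 CPM, was higher by log2 2.52 ± 0.48, Col27a1 by 1.18 ± 0.38 and Col5a3 by 0.99 ± 0.16. Col8a1 was at 2.32 and 2.66 CPM, against 51.5 to 191 CPM in the other clusters (log2 -5.21 ± 0.48, 37.0-fold lower, adjusted p = 5.03e-14). Col12a1 (-1.94 ± 0.36), Col14a1 (-1.89 ± 0.13) and Col1a1 (-0.37 ± 0.10) were lower as well. Without the library block Col1a1 and Col27a1 were not called, and under DESeq2's Wald test Col27a1 and Col4a4 were not.

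The Mgp Mfap4 cluster, whose leading genes include those of elastic fibres (Eln, Mfap4), had 8 members higher and 12 not called, where 5.06% and 2.28% of all genes were called higher and lower; the median log2 difference was 0.40 against 0.02. Col1a1 was at 2275 and 2850 CPM (log2 1.08 ± 0.09, 2.11-fold), Col1a2 at 3107 and 3526 (0.73 ± 0.09) and Col3a1 at 4245 and 5072 CPM (0.71 ± 0.09). Both libraries of the cluster lay above every other cluster for all 3 chains. Col8a1, at 191 and 106 CPM, was higher by log2 2.47 ± 0.29, Col4a5, at 69.6 and 79.8 CPM, by 1.93 ± 0.34, and Col15a1, at 317 and 285 CPM, by 1.73 ± 0.18. Col6a1 (1169 and 1136 CPM, 0.75 ± 0.11) and Col6a2 (0.70 ± 0.11) were higher, while Col4a1 (-0.06 ± 0.12), Col14a1 (0.22 ± 0.12) and Col6a3 (0.38 ± 0.13, adjusted p = 0.0693) were not called.

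The Has1 Tnfaip6 cluster had 2 members higher and 18 not called, where 1.6% and 0.423% of all genes were called higher and lower; the median log2 difference was 0.22 against 0.03. Col6a3 was at 483 and 569 CPM (log2 0.58 ± 0.12, adjusted p = 0.00149) and Col6a2 was higher by 0.38 ± 0.11 (adjusted p = 0.0400). Neither call was made without the library block or under DESeq2's Wald test, and Col6a3, kept out of the clustering, was among the 10 genes with the largest difference for this cluster over all cells.

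**Figure D4:**
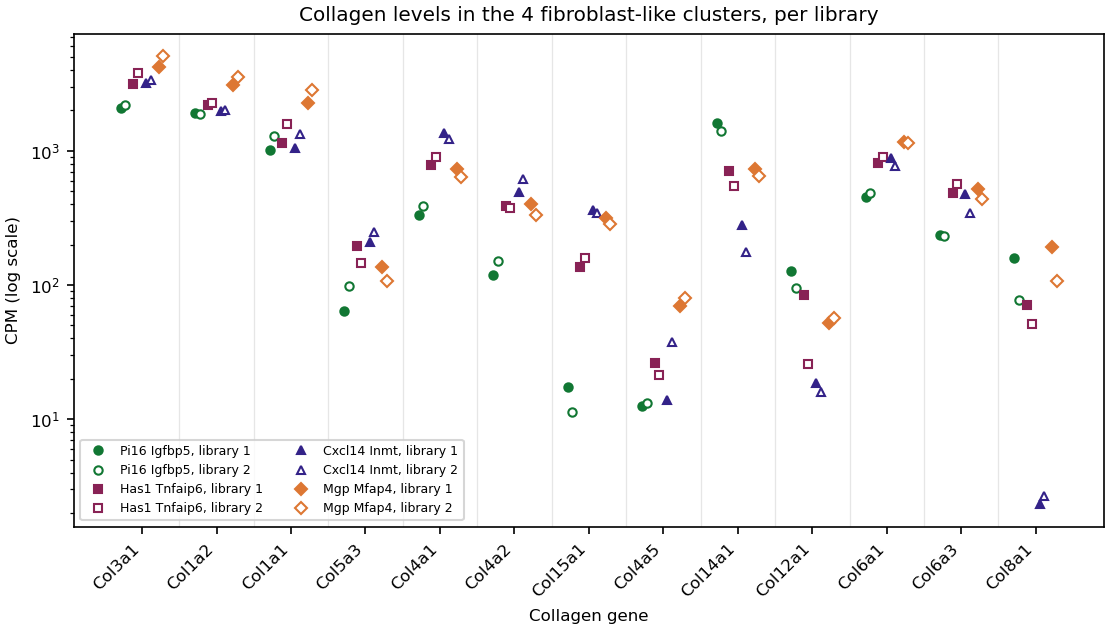
Points give CPM on a log axis for 13 collagens in the 4 fibroblast-like clusters, filled for library 1 and open for library 2. Col15a1 separates Pi16 Igfbp5 (17.3 and 11.2 CPM) from the rest, Col8a1 separates Cxcl14 Inmt (2.32 and 2.66 CPM) from the rest, Col14a1 is highest in Pi16 Igfbp5, and the 3 major fibrillar chains are highest in Mgp Mfap4.

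Ratios of UMIs between chains that assemble together do not depend on the total of the class. Col6a1 outnumbered Col6a3 by 1.91 and 2.00 to 1 in the fibroblast-like class, 1.45 and 1.12 to 1 in the pericyte-like class and 12.2 and 12.5 to 1 in the mesothelial-like class. The mesothelial-like ratio lay above all others, and it rested on 18 and 36 Col6a3 UMIs. Col4a1 outnumbered Col4a2 by 2.37 and 2.18 to 1 in the fibroblast-like, 1.498 and 1.43 in the endothelial-like and 1.42 and 1.61 in the pericyte-like class, so both vascular classes lay below the fibroblast-like class in both libraries. Col1a2 exceeded Col1a1 by 1.73 and 1.39 to 1 in the fibroblast-like and 1.51 and 1.41 to 1 in the mesothelial-like class, which overlap; the protein of type I is mostly made with more of the Col1a1 chain. Col5a1 over Col5a3 was 3.29 and 2.75 in Pi16 Igfbp5, 1.10 and 1.02 in Cxcl14 Inmt and 0.667 and 0.630 in the pericyte-like class. For the same reason of capture, a ratio is compared here between classes and not read as the proportion of chains. None of these ratios was tested.

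**Figure D5:**
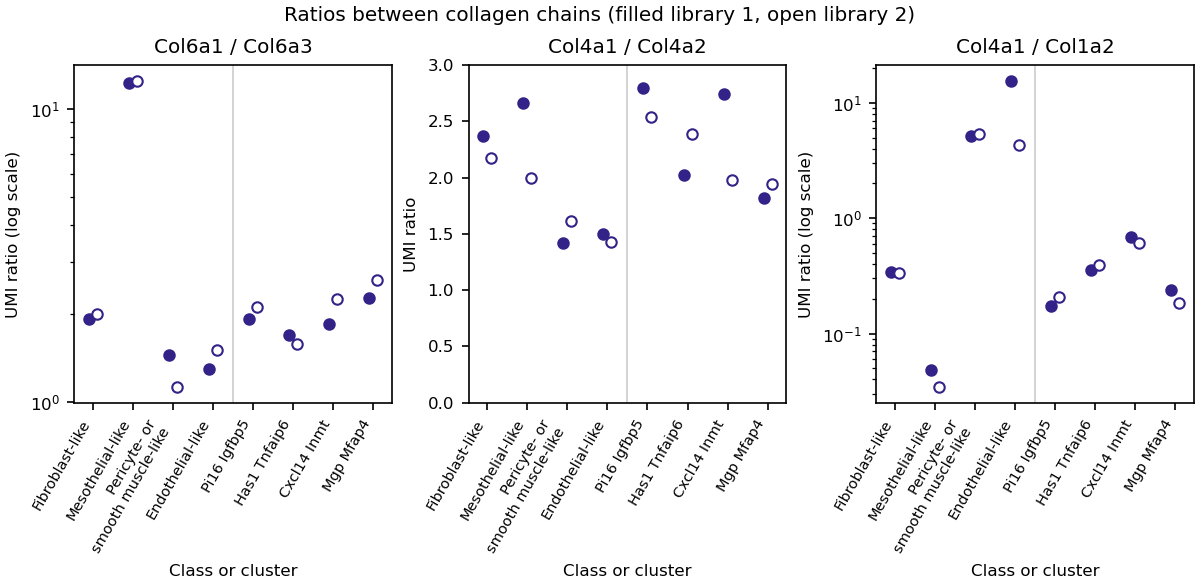
Each panel gives a ratio of UMIs between 2 collagen genes (log axes on the left and right, a linear axis from 0 in the middle) for 4 classes and the 4 fibroblast-like clusters, filled for library 1 and open for library 2. Col6a1 over Col6a3 stands at 12.2 and 12.5 in the mesothelial-like class against 2.60 or less elsewhere, and Col4a1 over Col1a2 falls from 15.6 and 4.35 in the endothelial-like class to 0.048 and 0.034 in the mesothelial-like class.

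Per cell, detection was measured after thinning every cell to 1000 UMIs and leaving out shallower cells (5 and 20 fibroblast-like cells). Col3a1 had a UMI in 89.5% and 88.8% of fibroblast-like cells, 71.6% and 79.5% of mesothelial-like cells and 29.7% and 29.6% of pericyte-like cells. The share was 2.30% and 9.15% in endothelial-like cells, against 1.28% and 0% in T-like cells, a class not expected to make it, where 0 of 163 cells allows a share of up to 1.84% (3 counts of the total). Median depth before thinning was 3658 and 3048 UMIs in the fibroblast-like and 1734.5 and 1603 UMIs in the T-like cells used. Unthinned, the mean Col3a1 share was 98.4% in fibroblast-like, 94.97% in mesothelial-like and 61.4% in pericyte-like cells. At 1000 UMIs a fibroblast-like cell held a median of 6 collagen genes, a mesothelial-like cell 4 and an endothelial-like cell 1.

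Detection followed the cluster levels. Col4a1 had a UMI in 69.6% and 71.8% of Cxcl14 Inmt cells and 25.8% and 34.3% of Pi16 Igfbp5 cells, and Col14a1 in 23.0% and 19.1% and in 77.3% and 66.4% of the same clusters. Col15a1 was detected in 31.1% and 26.0% of Cxcl14 Inmt cells and in 1.52% and 0% of Pi16 Igfbp5 cells. In T-like cells the shares were 0.641% and 0.613% for Col4a1, 0% and 0.613% for Col14a1 and 0% in both libraries for Col15a1. At this depth, shares so near 0 cannot show whether Pi16 Igfbp5 cells carry Col15a1 above background. Summed over unthinned cells, Col15a1 had 11 and 6 UMIs in Pi16 Igfbp5 (17.3 and 11.2 CPM). The T-like class had 0 and 2 (0 and 6.02 CPM), and this difference was not tested.

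Collagen UMIs in the monocyte-like class came from few cells. The class as a whole had 0.216% and 0.315% of its UMIs from collagens, but 52 of its 81 and 78 of its 135 cells held 0 collagen UMIs. Its cluster of 68 and 90 cells had 281 and 488 Col3a1 UMIs, and its cluster of 13 and 45 cells had 0 and 1. The 17 and 40 cells with at least 10 collagen UMIs held 97.8% and 98.7% of the collagen UMIs of the class. They were picked by that count, so a high share is in part built in. Those cells carried a median of 116 and 102 UMIs of the fibroblast markers, against 1 and 1 in the class and 133 and 92 in the fibroblast-like class, and 13 and 14.5 UMIs of the monocyte markers, against 65 and 38 in the class. Their median depth was 7265 and 6219 UMIs, against 5602 and 4484 in the class. The mean collagen share of the class was 0.0408% at the finer clustering at which the dendritic-like class had the 0.311% and 0.465% given above. In the T-like class of library 2, the 2 of 177 cells with at least 10 collagen UMIs held 84.9% of its 93 collagen UMIs. Leaving the monocyte-like class out of the average of other classes left all 20 tested members called higher in fibroblast-like cells. With that class kept in, 31.8% of all genes tested were called higher. Most classes in the average held few collagen UMIs, so leaving out 1 of them is a weak check.

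Genes that work on collagen were followed in 5 lists, all of whose genes were in the matrix: chain synthesis and folding (22 genes), procollagen trimming and crosslinking (13), fibril-binding proteins (9), collagen receptors (11) and collagen degradation (11). The degradation list holds proteases and also the protease inhibitors Timp1, Timp2 and Timp3, so its counts mix both. Against the mesothelial-like class, where 15.7% of all genes were called higher and 18.4% lower, 6 of 19 synthesis genes tested were higher in fibroblast-like cells and 2 were lower (median log2 0.27); Serpinh1, the collagen chaperone, was higher by 0.73 ± 0.22, and P4hb, a subunit of prolyl hydroxylase, was not called (0.07 ± 0.18). Of 7 trimming and crosslinking genes 6 were higher, among them Pcolce2 (log2 8.07 ± 0.35), an enhancer of procollagen trimming, and the crosslinking enzymes Loxl1 (1.22 ± 0.17) and Loxl2 (1.39 ± 0.17). Of 6 fibril-binding genes 5 were higher, led by Thbs1 (5.39 ± 0.32) and Fn1 (4.70 ± 0.37), which encodes fibronectin. The receptors divided: Ddr2, which binds fibrillar collagen, was higher by 1.89 ± 0.16 and Mrc2, an uptake receptor for collagen, by 1.64 ± 0.34, while Ddr1 (-3.23 ± 0.27) and Adgrg1 (-5.48 ± 0.53) were lower. Of 7 degradation genes 3 were higher, including Mmp2 (3.64 ± 0.25), a gelatinase.

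The vascular comparisons are read beside 20.1% and 22.9% of all genes called higher and lower against endothelial-like cells and 18.7% and 21.5% against pericyte-like cells. All 7 trimming and crosslinking genes tested were higher in fibroblast-like cells than in endothelial-like cells (median log2 4.05) and than in pericyte-like cells (median 4.81). Serpinh1 was higher by 1.43 ± 0.23 and 1.29 ± 0.23, in lists where 13 and 11 of 19 were higher and 1 was lower in each. Sparc, a collagen-binding protein that travels with type IV collagen too, was not called against either class (0.41 ± 0.22 and -0.03 ± 0.22), whereas 5 of the 6 fibril-binding genes were higher against each. Timp3, an inhibitor of matrix proteases, was lower in fibroblast-like cells against both (log2 -1.21 ± 0.23 and -2.11 ± 0.23), while Timp2 was higher (4.17 ± 0.26 and 4.53 ± 0.28). Of 8 receptors 4 were higher and 3 lower against endothelial-like cells, and 3 and 3 against pericyte-like cells, with Adgrg1 lower in both (-8.23 ± 0.35 and -7.81 ± 0.39).

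Within the fibroblast-like class the synthesis list differed from the other clusters in some of its genes. In Pi16 Igfbp5, 7 of 19 were lower and 12 were not called (median log2 -0.50), where 13.6% of all genes were called lower and 12% higher; the 7 included Serpinh1 (-0.65 ± 0.10) and P3h3 (-0.91 ± 0.19), a prolyl 3-hydroxylase family member. In Mgp Mfap4, 4 of 19 were higher and 15 were not called (median 0.36), where 5.06% of all genes were called higher and 2.28% lower, with Serpinh1 at 0.59 ± 0.10 and P3h3 at 0.82 ± 0.20. Lox, the founding lysyl oxidase, was higher in Mgp Mfap4 (2.01 ± 0.16) and in Cxcl14 Inmt (1.23 ± 0.16) and lower in Has1 Tnfaip6 (-0.92 ± 0.20). Fn1 was higher in Pi16 Igfbp5 (2.00 ± 0.09) and in Has1 Tnfaip6 (1.05 ± 0.10) and lower in Cxcl14 Inmt (-2.11 ± 0.13) and Mgp Mfap4 (-0.93 ± 0.12). Pcolce, the partner of the C-proteinase, was lower in Pi16 Igfbp5 (-1.24 ± 0.13) and higher in Mgp Mfap4 (0.86 ± 0.12), whereas Pcolce2 was higher in Pi16 Igfbp5 (0.60 ± 0.11). Timp2 and Timp3 were higher in Pi16 Igfbp5 (0.64 ± 0.09 and 1.02 ± 0.11), and Mmp2 and Mmp14 lower (-1.35 ± 0.16 and -0.69 ± 0.17). The 4 cluster comparisons share the same 8 sums, so these values are not independent of each other.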

How the data were processed

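Single-cell libraries of 2 mice were analysed from the count matrix that the authors deposited: whole-number UMI counts per gene and cell barcode, not normalized, made with Cell Ranger on build mm10 per the submitters' processing notes. Barcode suffixes 1 and 2 were taken as the libraries of mouse 1 and mouse 2. The version and settings of that step: not given in the sources used here.

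Cells with under 200 genes or over 10% mitochondrial UMIs were removed (61). Scrublet in scanpy 1.11.5 (Python 3.11.15) marked 39 and 4 doublets, which were removed; few were marked in library 2, so doublets may remain. Counts were scaled to 10000 per cell, and 2000 variable genes without collagens and pathway genes gave 30 principal components, 15 neighbours and Leiden clusters (resolution 1.0). A cluster was named X-like from at least 3 fixed markers. Class names are rebuilt, not the authors'.

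UMIs were summed per library and class, or fibroblast-like cluster, and tested with edgeR 4.0.16 in R 4.3.3 (TMM, filterByExpr, quasi-likelihood F test, Benjamini-Hochberg over all genes tested, calls at 0.05), with the library as a block because the same animal gave every class. Residual degrees of freedom were 10 for classes and 3 for clusters. Tested on simulated data, the class fit recovered 32 of 100 2-fold and 91 of 100 4-fold changes with 5 false calls among 6838 genes, and the cluster fit 26 and 92 with 5 among 5622. Folds against 0 UMIs used 3 UMIs as a floor. Intervals are exact 95% binomial and cover counting error only. Alternatives were DESeq2 1.42.0 size factors and Wald test, no low-count filter, no block, other clusterings, cell filters and thinning depths, and leaving out a library.

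Every collagen with at least 10 UMIs was given its level in the text or in the heat map by class. In each comparison every collagen tested was named or counted. Pathway genes were the up to 4 called and up to 2 not called with the highest average log2 CPM in each list. The members, collagen classes, marker lists and pathway lists were chosen with earlier results of these data known.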

Additional observations from a re-analysis of the deposited data

Results flagged for a closer look

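The unnamed cluster, which no class comparison used, held collagen UMIs at 0.8997% of all its UMIs on average over the libraries (0.896% and 0.904% in library 1 and library 2), where the T-, B- and other lymphoid-like classes were at or below 0.0280%. It is 1 cluster of 31 cells, 8 and 23 in the 2 libraries. Col3a1 was at 2067 and 2678 CPM there, 70.3% and 79.5% of the fibroblast-like level, and the fibroblast marker Dcn was at 72.6% and 74.1%. Its leading genes by fold over other cells were Wdyhv1, Il13 and Wdr20, and none of the marker lists named it.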

How the results depend on the processing

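Over all settings with a test, 977 of 980 values of called collagens kept their direction, but 48 values lost their call, 22 of them under DESeq2's Wald test. All settings use the same counts, so a kept direction is a weak check. The 3 that turned were Col4a6 (log2 -1.47), Col8a2 (-0.24) and Col18a1 (-0.35) against all other cells summed, where 1 collagen was called lower. Without the replicate block, which removes the pairing of classes by animal, the Has1 Tnfaip6 cluster had 0 collagens called higher and 40 genes called in all, Mgp Mfap4 252 genes, and 1 collagen was called lower against the pericyte-like class, in place of 2, 110, 399 and 2; it cost 3 calls against the mesothelial-like class, 2 in Cxcl14 Inmt and 8 over all comparisons. Under DESeq2's Wald test the clusters Cxcl14 Inmt, Has1 Tnfaip6, Mgp Mfap4 and Pi16 Igfbp5 had 324, 30, 149 and 580 genes called, in place of 892, 110, 399 and 1392; Has1 Tnfaip6 had 0 collagens called higher, and 2, 0 and 1 collagens were called lower against the mesothelial-, endothelial- and pericyte-like classes. Against the pericyte-like class 1 collagen was called lower in all 9 alternatives with a test. Against the endothelial-like class 2 were called lower without the low-count filter and 0 with collagens kept in the clustering; Has1 Tnfaip6 had 1 called higher with DESeq2 size factors and 1 with collagens kept in, the latter added after seeing the data.

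Leaving out a library leaves no residual degrees of freedom, so only values could be given and no counts of calls; they are log2 CPM differences of 1 library and differ in construction from the fit. The median over the collagens was then 4.54 to 4.86 against the average of other classes, 1.03 to 1.41 against mesothelial-like, 2.99 to 4.06 against endothelial-like and 2.20 to 2.30 against pericyte-like cells, and 0.022 to 0.15 in Cxcl14 Inmt, 0.19 to 0.21 in Has1 Tnfaip6, 0.54 to 0.63 in Mgp Mfap4 and -0.97 to -0.95 in Pi16 Igfbp5.

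With type IV chains alone as basement membrane collagens, their share was 9.73% in the fibroblast-like, 4.04% in the mesothelial-like, 57.2% in the pericyte-like and 14.1% in the monocyte-like class. The collagen share of the monocyte-like class was 0.0408% at resolution 2.0, 0.0799% with collagens kept in the clustering, 0.0513% under the stricter cell filter and 0.0557% without doublet removal; the highest share in either library among the 6 other immune classes, 0.0280% as reported, was 0.0757% at resolution 0.5, 0.465% at resolution 2.0, 0.440% under the stricter filter and 0.434% without doublet removal, and 0.00948% to 0.0280% with a library left out; the collagen share of the mesothelial-like class was 0.627% under the stricter filter and that of the endothelial-like class 0.160% without doublet removal. Thinned to 500 UMIs, to 2000 UMIs and unthinned, the Col3a1 share of cells was 71.5%, 96.6% and 98.4% in the fibroblast-like, 54.9%, 90.8% and 94.97% in the mesothelial-like and 17.8%, 39.6% and 61.4% in the pericyte-like class. The cause of these changes was not tested, except that deeper cells detect more by construction. Cluster comparisons without doublet removal were not run, since the clusters could not be matched. Cluster comparisons were also not run at the other 2 clustering resolutions, which change the clusters themselves. Depth limits the 24 collagens not tested, and 2-fold differences were recovered less often than 4-fold ones in the simulated data.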
